A study of Mus musculus with 11 samples.

Results

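Aminoacyl-tRNA synthetases, the enzymes that join each amino acid to its tRNA, were followed in the pancreas and the epididymal adipose tissue of mice with obesity-related alcohol-induced acute pancreatitis (OA-AP). Members were chosen by gene symbol: the letter of the amino acid followed by "ars", with a final 2 for the mitochondrial enzyme, plus the joint glutamyl-prolyl enzyme Eprs and the phenylalanyl subunits Farsa and Farsb. This gave 37 genes of the 45260 listed for both tissues, 20 for cytosolic enzymes and 17 for mitochondrial ones. All 37 had enough counts to be tested in both tissues. In the pancreas 17 of the 20 cytosolic synthetases had a fold change below the median of all tested genes. Of the 20, 8 were downregulated, where 13.5% of all tested genes were, while Vars alone was upregulated, 3.26-fold. In adipose tissue all 20 cytosolic synthetases had a positive fold change, and 10 were upregulated, where 12.1% of all tested genes were. The mitochondrial enzymes changed in few cases in either tissue.

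Both groups were wild type C57BL/6 mice aged 16 W by their labels. Control mice ate normal chow for 12 weeks and received saline, whereas OA-AP mice had 12 weeks of high-fat diet and then ethanol, 2 g/kg in each of 2 intraperitoneal injections 1 h apart. Tissue was collected 12 h after the first injection. Diet and ethanol differ together between the groups, so their parts in any difference cannot be told apart. The libraries came from 5 pancreases, 2 control and 3 OA-AP, and from 6 adipose samples, 3 of each group. The labels do not say whether the pancreas and adipose samples came from the same mice, and p-values here measure the spread between these samples.

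A synthetase activates its amino acid with ATP and transfers it to the matching tRNA, and the charged tRNA is what the ribosome uses. The cytosolic and mitochondrial enzymes are mostly separate nuclear genes. For glycine and lysine a single gene, Gars or Kars, serves both compartments. In the cytosol 8 of the enzymes (the products of Eprs, Iars, Lars, Mars, Qars, Rars, Kars and Dars) sit with 3 scaffold proteins in the multi-synthetase complex, and the others work outside it. Pancreatic acinar cells, which make digestive enzymes, have some of the highest rates of protein synthesis of any cell. The transcription factor ATF4 raises many synthetase genes when amino acids run short or when the endoplasmic reticulum is under stress.

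The libraries held 14188832 to 17238919 counts in the pancreas and 20825177 to 27928097 in adipose tissue. The 47 acinar marker genes took 81.4% to 82.8% of the counts in control pancreas and 67.5% to 70.1% in OA-AP pancreas. In adipose tissue the 10 adipocyte markers took 4.47% to 4.78% of the counts in control and 3.39% to 4.11% in OA-AP, so the groups did not overlap in share. In summed CPM on the scale used below the groups overlapped, at 42800 to 45500 in control and 34800 to 44400 in OA-AP. Acinar genes took 1.16% of the counts of adipose control 2 and 0.0186% to 0.026% in the other adipose libraries. The summed level of 11 neutrophil markers was 1.2 and 1.99 CPM in control pancreas against 3.26 to 97.2 CPM in OA-AP pancreas, and 9.74 to 16 CPM in control adipose tissue against 145 to 180 CPM in OA-AP adipose tissue. Levels below are CPM, counts set to a common library total, scaled by TMM factors within each tissue. Such a scaling assumes that most genes do not change, so every fold change is relative to the bulk of the tested genes. The RNA came from whole tissue, so fewer cells of a type and less RNA per cell cannot be told apart.

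Because ATF4 is the best known common regulator of synthetase genes, their RefSeq promoters (GRCm38.p6, windows of 300 bases around the start) were searched for the composite site bound by ATF4 with C/EBP partners. The letters searched were TGATGNAAN on either strand, which reads NTTNCATCA on the other strand. Of 32851 promoters in that source, 3.95% hold these letters. Promoters were found for 27 of the 37 members, and 5 of these hold a match. All 5 are in the cytosolic group, in which Gars, which serves both compartments, is counted. A window is shown for each because the 5 genes differ in how they changed below; the match is in capitals, in the direction of the gene.
Yars, chr4:129189896-129189924, plus strand: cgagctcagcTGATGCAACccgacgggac
Iars, chr13:49682126-49682154, plus strand: cactgtcagtATTGCATCAcctccagacg
Tars, chr15:11399656-11399684, minus strand: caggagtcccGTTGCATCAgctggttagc
Gars, chr6:55037960-55037988, plus strand: tggctgcgctATTTCATCAtgcaccgggc
Aars, chr8:111033840-111033868, plus strand: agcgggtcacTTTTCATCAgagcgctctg
In GENCODE M21 the Tars and Gars matches lie upstream of the gene, and those of Iars and Aars lie in untranslated exon. Aars holds another match in untranslated exon, whose window, chr8:111033719-111033747, is not shown. The Yars match lies in a stretch annotated as coding exon.

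To ask how the synthetases stood before disease, the control tissues were compared in a joint fit of all 11 libraries, with both tissues on 1 scale. On that scale the tryptophanyl enzyme Wars was the most abundant member per length in the pancreas, at 102 and 96.8 CPM per kb of gene length in the 2 control libraries. In control adipose tissue Wars stood at 8.79, 15.9 and 8.99 CPM per kb, and no library of one tissue reached the other. The fitted difference, pancreas minus adipose tissue, was 3.15 ± 0.24 (log2, SE; adjusted p = 3.84e-07, edgeR). The asparaginyl enzyme Nars was second in the pancreas at 41.6 and 44.6 CPM per kb, and it led in adipose tissue at 21.8, 21.3 and 20.1 CPM per kb. Of all genes tested, 26% were higher in control pancreas, 29.4% lower and 55.5% either (at least 1.5-fold apart, with an adjusted p under 0.05). Against this, 15 of 20 cytosolic synthetases were higher in the pancreas and none was lower. Mars, for methionine, differed by 2.15 ± 0.13, Cars, for cysteine, by 2.11 ± 0.12, and Vars, for valine, by 2.06 ± 0.14. The 5 that were not called were Aars, Dars, Eprs, Farsb and Rars, with differences of -0.19 to 0.15. Of the 17 mitochondrial enzymes 5 were higher (Cars2, Mars2, Aars2, Ears2 and Yars2) and 2 were lower. Cars2 stood furthest apart, at 3.98 and 4.28 CPM per kb in the pancreas and 0.834 to 1.01 in adipose tissue.

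The direction of this tissue difference rests on the scaling. A few acinar transcripts fill most of a pancreas library, and with library totals alone the median of all tested genes moved from -0.22 to -2.67. All 20 cytosolic synthetases lay above the median, and since a scaling moves genes and median together, this position could not change. With totals alone, 1 member was called higher and 32 were called lower.

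**Figure D1:**
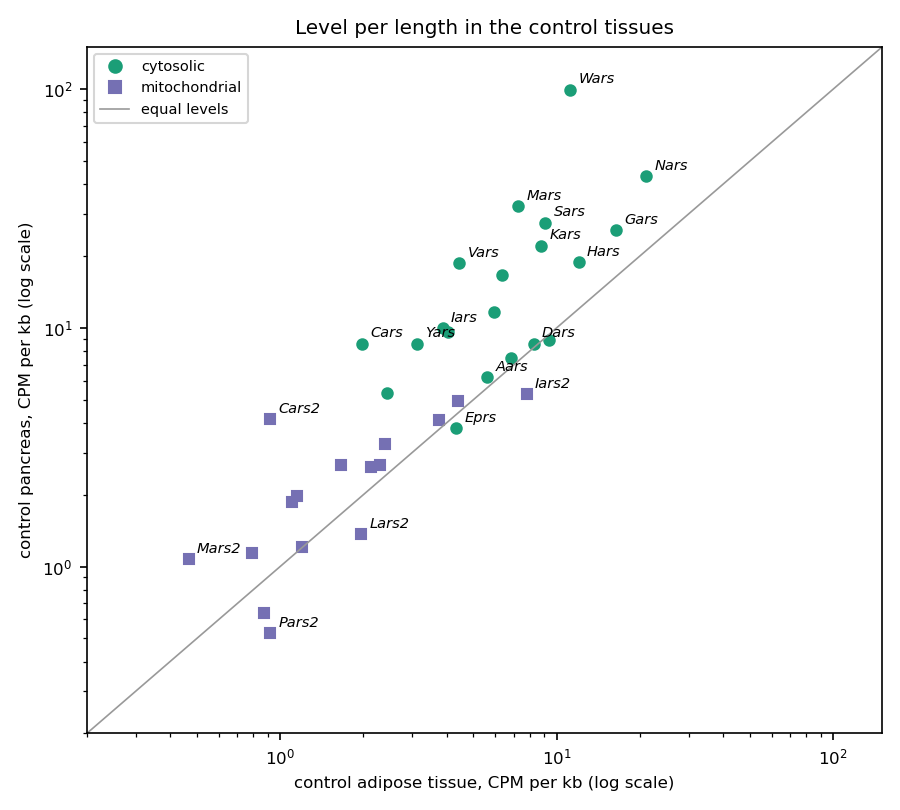
Mean level of each synthetase per kb of gene length in the 3 control adipose libraries (x axis) and the 2 control pancreas libraries (y axis), in CPM per kb on log scales, from the joint TMM scaling. Wars, at 99.5 in the pancreas and 11.2 in adipose tissue, lies furthest above the line of equal levels; squares are mitochondrial enzymes, of which 1 is not drawn.

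In the pancreas, OA-AP was compared with control to ask whether the charging enzymes moved with the disease. Of the 12884 genes tested, 16.2% were upregulated, 13.5% downregulated and 29.8% either, which makes them DEGs (at least 1.5-fold apart, with an adjusted p under 0.05). Of the 20 cytosolic synthetases 8 were downregulated, 1 was upregulated and 11 were not DEGs. Their median log2 fold change was -0.58, against 0.04 over all genes tested, and 17 of the 20 lay below that overall median.

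The cysteinyl enzyme Cars fell the most. Its level was 26.5 and 27.5 CPM in the control libraries and 7.88, 7.55 and 8.996 CPM in the OA-AP libraries, so the groups were far apart. The log2 fold change was -1.73 ± 0.15 (adjusted p = 0.000226). The tyrosyl enzyme Yars stood at 22.7 and 26.1 CPM in control and at 9.82, 9.78 and 8.79 CPM in OA-AP. It fell by 1.37 ± 0.15 on the log2 scale (adjusted p = 0.000528). Nars, for asparagine, fell by 1.20 ± 0.14, from 51.8 and 56.6 CPM to 23.1, 21.1 and 26.4 CPM (adjusted p = 0.000788). These 3 enzymes work outside the multi-synthetase complex, as do Tars for threonine and Aars for alanine. Tars stood at 27.4 and 27.0 CPM in control against 14.4, 14.2 and 15.4 CPM in OA-AP, a log2 fold change of -0.89 ± 0.13 (adjusted p = 0.00193). Aars stood at 28.1 and 27.2 CPM against 16.0, 13.4 and 21.7 CPM, a log2 fold change of -0.70 ± 0.20 (adjusted p = 0.0315).

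Within the complex 3 of 8 enzymes were downregulated. Iars, for isoleucine, was at 27.6 and 22.9 CPM in control and at 13.3, 13.4 and 11.1 CPM in OA-AP, a log2 fold change of -1.003 ± 0.16 (adjusted p = 0.0026). Eprs, for glutamate and proline, was at 32.1 and 33.9 CPM against 18.7, 17.6 and 21.4 CPM, a log2 fold change of -0.78 ± 0.14 (adjusted p = 0.0048). Mars was at 51.2 and 54.6 CPM against 33.0, 30.1 and 40.7 CPM, a log2 fold change of -0.61 ± 0.16 (adjusted p = 0.0197). All OA-AP libraries lay below both controls for 13 of the 20 cytosolic enzymes, the 8 downregulated ones among them, and for 29.4% of all tested genes. Outside the complex 5 of 12 were downregulated, and the medians of the complex and the other enzymes were -0.58 and -0.57.

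Of the complex, Kars at -0.58 ± 0.12 (adjusted p = 0.009) and Lars, for leucine, at -0.58 ± 0.18 (adjusted p = 0.0375) passed the adjusted p but missed the fold change, as did Sars, for serine, outside it at -0.54 ± 0.14 (adjusted p = 0.0222). Farsb at -0.59 ± 0.20 had an adjusted p of 0.0509 and Hars, for histidine, at -0.41 ± 0.15 one of 0.0657. The remaining 6 (Dars, Farsa, Gars, Qars, Rars and Wars) ranged from -0.26 to 0.18 with overlapping groups. Wars, the most abundant of all, was at 167 and 161 CPM in control and at 156, 149 and 174 CPM in OA-AP.

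Vars, which charges valine, went the other way. Both control libraries stood at 49.9 CPM, and the OA-AP libraries at 152, 152 and 184 CPM, on 500 to 3510 counts per library. The log2 fold change was 1.71 ± 0.15 (adjusted p = 0.000233). All OA-AP libraries lay above all controls, as for 32.9% of all tested genes. Set against the median of the other cytosolic synthetases in the same library, which the library scaling does not touch, Vars stood 0.83 and 0.85 log2 units higher in control and 3.24, 3.11 and 3.09 higher in OA-AP. The Vars gene lies at chr17:35000987-35016322 (GRCm38, plus strand), and none of its exon bases is shared with another gene in GENCODE M21. Per length, on the pancreas scale, it moved from a mean of 8.9 CPM per kb in control, where its libraries overlapped those of Hars, to 29 CPM per kb in OA-AP. There it ranked behind Wars alone, whose mean was 46.3 CPM per kb, and above all Gars libraries (11.2 to 18.5 CPM per kb).

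Of the mitochondrial enzymes 2 were downregulated, 1 was upregulated and 14 were not DEGs. DEGs made up 17.6% of them, under the 29.8% of all tested genes. The 2 downregulated are near the 13.5% of all tested genes. The median log2 fold change was -0.31, and 15 of the 17 lay below the median of all genes. Cars2, for mitochondrial cysteine, was at 13.6 and 14.96 CPM in control and at 5.78, 6.81 and 3.19 CPM in OA-AP, a log2 fold change of -1.44 ± 0.29 (adjusted p = 0.0081). Both cysteinyl enzymes, Cars and Cars2, were thus lower in OA-AP pancreas. Fars2, for mitochondrial phenylalanine, was at 10.5 and 7.48 CPM against 2.78, 5.15 and 4.86 CPM, a log2 fold change of -1.08 ± 0.30 (adjusted p = 0.0276). Yars2, for mitochondrial tyrosine, rose from 4.12 and 3.89 CPM to 8.87, 7.78 and 6.75 CPM (0.96 ± 0.22, adjusted p = 0.0138), while its cytosolic counterpart Yars fell. These 3 rest on 39 to 169 counts per library. The other 14 had log2 fold changes from -1.06 for Sars2 to 0.34 for Pars2. None of them passed the adjusted p.

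**Figure D2:**
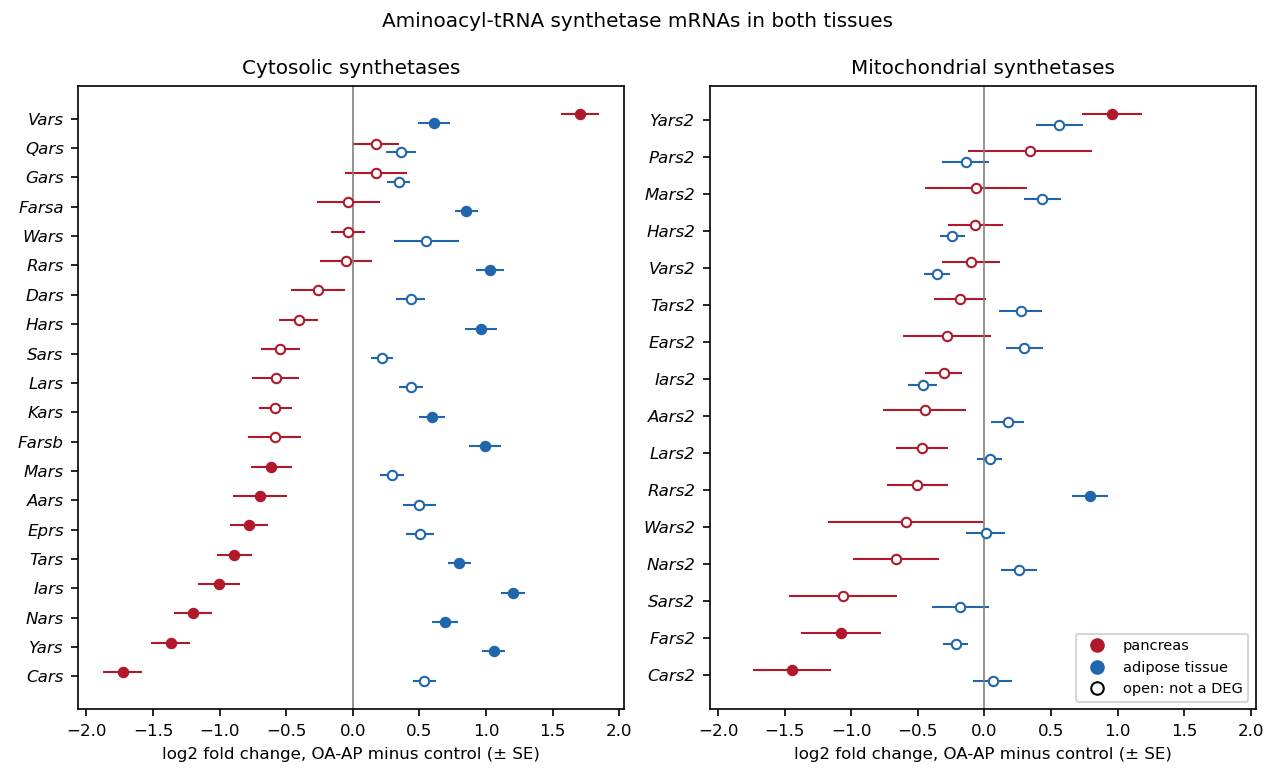
Log2 fold change of each synthetase, OA-AP minus control, with its SE, in the pancreas (red) and in adipose tissue (blue), for the 20 cytosolic (left) and 17 mitochondrial (right, 1 not drawn) enzymes; filled points are DEGs. In the pancreas the cytosolic points reach from -1.73 for Cars to 1.71 for Vars, whereas in adipose tissue all 20 lie between 0.22 and 1.2.

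How much of the pancreatic difference appears depends on what the libraries are scaled to. With DESeq2 size factors, or TMM without acinar genes, 11 cytosolic enzymes were called lower, all 8 named above among them. Vars was the 1 called higher in each, and the cytosolic medians were -0.61 and -0.6. Library totals alone gave other calls. Cytosolic synthetases took 0.054% to 0.0615% of all counts in control pancreas and 0.08% to 0.088% in OA-AP pancreas. Leaving acinar genes out of the total, they took 0.315% to 0.331% in control and 0.268% to 0.285% in OA-AP. On the TMM scale their summed level was 776.5 and 774.8 CPM in control and 668.3, 649.1 and 789.8 CPM in OA-AP. There OA-AP 3 lay above both controls, so the groups overlapped. That sum includes Vars, at 49.9 CPM in both controls and at 152, 152 and 184 CPM in OA-AP. The 8 enzymes of the complex, Vars not among them, summed to 258.7 and 251 CPM in control. They summed to 177.8, 173 and 206.3 CPM in OA-AP, so there the groups did not overlap. With library totals alone the median of all tested genes moved up by 0.71 log2 units, to 0.75, and the cytosolic median became 0.13. Then 2 cytosolic enzymes were called lower (Cars and Yars) and 6 higher (Vars, Wars, Gars, Qars, Rars and Farsa). Since a scaling moves all genes of a comparison together, 17 of the 20 necessarily stayed below the shifted median. The fall in the acinar share moved with these values, and its part in them was not tested.

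**Figure D3:**
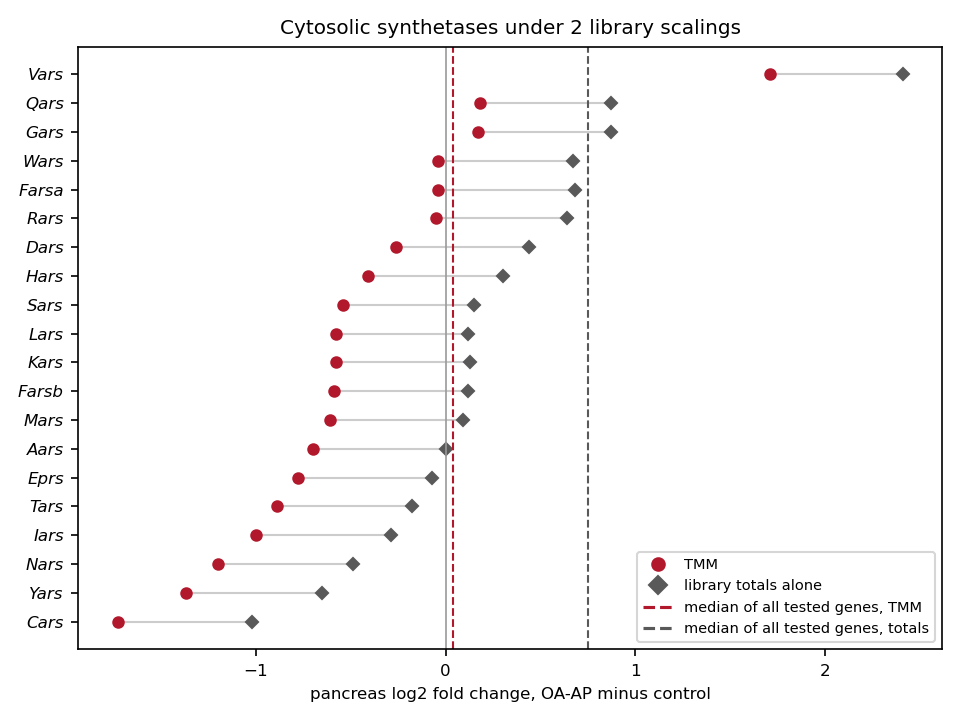
Pancreas log2 fold change of the 20 cytosolic synthetases with TMM factors (red circles) and with library totals alone (grey diamonds); dashed lines give the median of all tested genes under each, 0.04 and 0.75. All members and the median line shift together to the right, as the scaling makes them.

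Leaving out 1 pancreas library at a time, Vars, Cars, Yars, Nars, Iars and Tars were DEGs in 5 of 5 refits. Eprs was lost without control 2, and Aars and Mars were DEGs in only 1 of 5 refits, the one without OA-AP 3. The downregulated cytosolic enzymes numbered 5 without control 2 and 11 without OA-AP 3, the library with the highest neutrophil marker level. Among mitochondrial enzymes, no downregulated or upregulated DEG was left without either control library. Without OA-AP 1, Cars2 was the only one left.

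In adipose tissue 12.1% of the 15839 genes tested were upregulated and 13% downregulated. Of the 20 cytosolic synthetases 10 were upregulated, none was downregulated, and the median log2 fold change was 0.57, against -0.01 over all genes tested. On the adjusted p alone 18 of the 20 were higher, beside 19.4% of all tested genes. In 19 of the 20, Wars excepted, every OA-AP library lay above every control library, which held for 26.4% of all tested genes.

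Iars rose the most, from 38.6, 37.5 and 39.0 CPM to 97.7, 83.2 and 83.9 CPM (log2 fold change 1.20 ± 0.09, adjusted p = 0.000402). Yars rose by 1.06 ± 0.09, from 35.2, 36.2 and 33.0 CPM to 77.9, 69.5 and 70.3 CPM (adjusted p = 0.000474). Rars, the arginyl enzyme of the complex, rose by 1.03 ± 0.10, from 42.9, 44.1 and 37.6 CPM to 85.3, 77.7 and 91.4 CPM (adjusted p = 0.000803). These 3 at least doubled, by fold changes of 2.301, 2.08 and 2.04. Both subunits of the phenylalanyl enzyme rose. Farsb went from 44.4, 48.7 and 45.0 CPM to 101, 77.0 and 96.6 CPM (0.99 ± 0.12, adjusted p = 0.00155), and Farsa from 22.1, 20.3 and 19.9 CPM to 38.9, 36.4 and 37.1 CPM (0.85 ± 0.09, adjusted p = 0.000867).

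Hars rose from 49.2, 44.7 and 40.6 CPM to 94.1, 75.2 and 93.1 CPM (0.96 ± 0.12, adjusted p = 0.00179). Tars rose from 44.5, 46.4 and 43.2 CPM to 82.1, 71.7 and 79.5 CPM (0.80 ± 0.09, adjusted p = 0.00112). Nars rose from 107, 106 and 99.4 CPM to 177, 155 and 173 CPM (0.69 ± 0.09, adjusted p = 0.00231). The rise was smaller for the last 2. Vars was at 45.0, 48.2 and 47.5 CPM in control and at 82.4, 60.9 and 71.5 CPM in OA-AP (0.61 ± 0.12, adjusted p = 0.00808), so it rose here along with the others. Against the median of the other cytosolic synthetases it stood at -0.13, -0.04 and 0 log2 units in control and at -0.25, -0.41 and -0.38 in OA-AP. Kars was at 69.7, 74.3 and 77.2 CPM against 121, 102 and 112 CPM (0.60 ± 0.10, adjusted p = 0.00423). Without OA-AP 1 neither Kars nor Vars was a DEG, and Kars was also lost without control 1. The other 8 upregulated enzymes were DEGs in 6 of 6 refits with 1 library left out. With library totals alone 7 cytosolic enzymes were upregulated, and Nars, Vars and Kars were not DEGs.

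Below the fold change were Cars, Eprs, Aars, Lars, Dars, Qars, Gars and Mars, at 0.29 to 0.54 with adjusted p-values of 0.00382 to 0.0438, and Sars at 0.22 ± 0.08 (adjusted p = 0.0704). In the complex 3 of 8 enzymes were upregulated and outside it 7 of 12. The summed level of the cytosolic enzymes was 1260 ± 48 CPM (SD, n = 3) in control and 1910 ± 132 CPM in OA-AP. In the same libraries 5 of the 6 neutrophil markers tested were upregulated and 1 was downregulated, and of 10 macrophage markers 4 were upregulated and 1 was downregulated. Of the lymphocyte and fibroblast markers tested, 6 of 8 and 5 of 7 were downregulated. Over all tested genes 12.1% were upregulated and 13% downregulated. Of 10 adipocyte markers 1 was upregulated, 2 were downregulated and 7 were not DEGs. The adipocyte share of the counts was lower in the OA-AP libraries, while the summed CPM overlapped, as given above. The part of these cell types in the synthetase levels was not tested.

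Wars was the cytosolic enzyme with the widest spread. It stood at 56.8, 103 and 58.2 CPM in the control libraries and at 95.9, 123 and 101 CPM in OA-AP, so that control 2 overlapped the OA-AP group. The log2 fold change was 0.55 ± 0.25 (adjusted p = 0.122). Wars is known as a gene induced by interferon gamma, and the summed level of 25 interferon response genes followed the same libraries. It was 740.5, 2153 and 685.1 CPM in control 1, 2 and 3, and 753.2, 1699 and 863.6 CPM in OA-AP 1, 2 and 3, highest in replicate 2 of each group. Gbp4, a guanylate-binding protein of that list, stood at 44.9, 286 and 58.1 CPM in control and at 40.2 to 56.5 CPM in OA-AP. Gbp2 stood at 71.5, 150 and 62.3 CPM in control and at 77.5, 381 and 126 CPM in OA-AP. Without control 2 the log2 fold change of Wars was 0.90, and it was a DEG. Adipose control 2 is also the library with the acinar counts; the part of either signal was not tested.

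**Figure D4:**
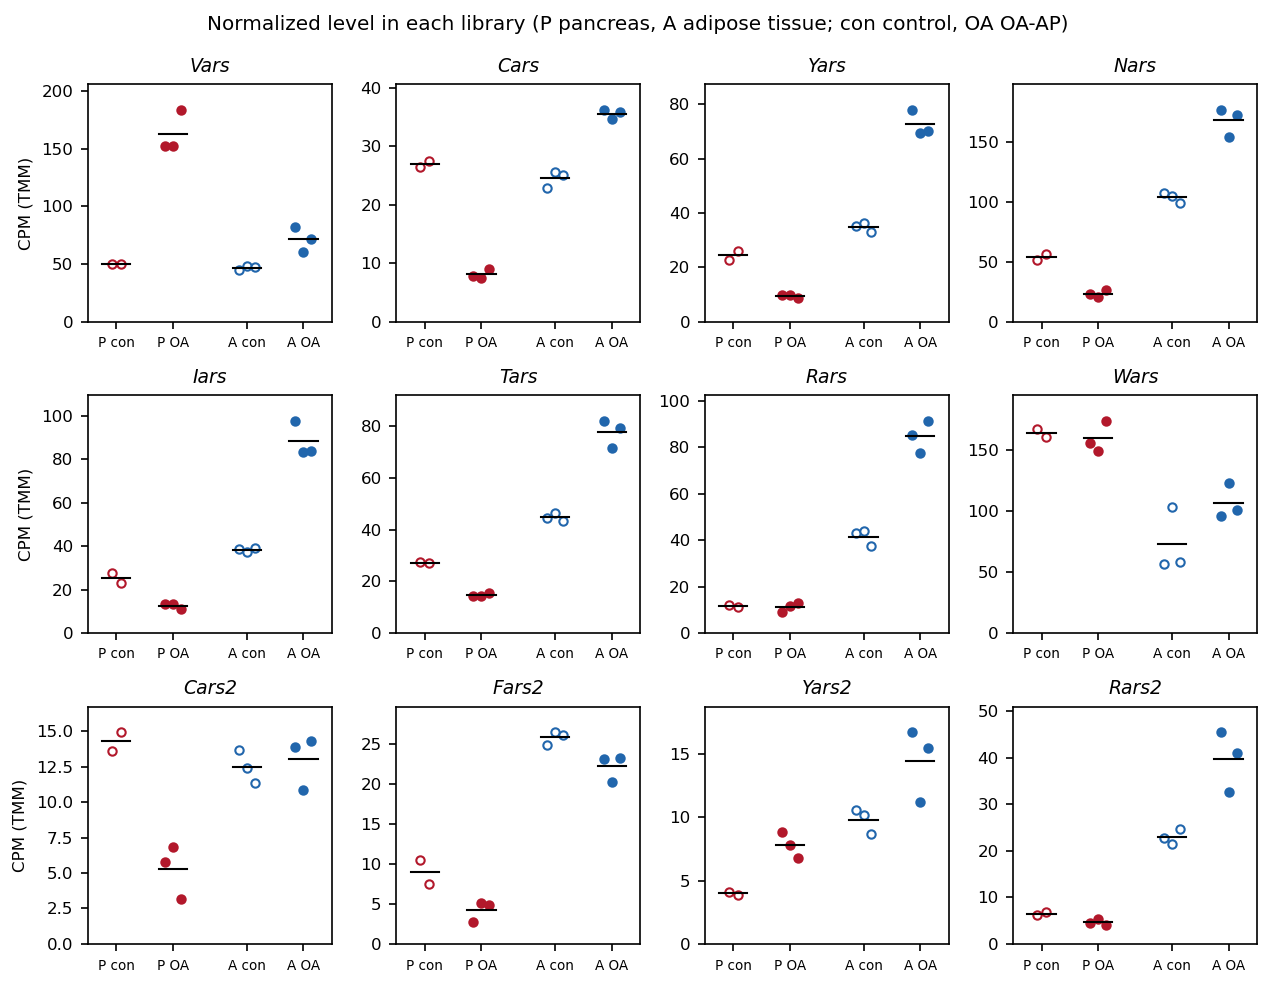
Level of 12 synthetases in each library, in CPM scaled by TMM within each tissue, so that levels are compared within a tissue only; open points are control, filled points OA-AP and bars the group means. Vars separates upward in the pancreas (49.9 CPM in both controls, 152 to 184 CPM in OA-AP), Cars, Yars and Nars separate in opposite directions in the tissues, and 1 control library overlaps OA-AP for Wars in adipose tissue.

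Of the mitochondrial enzymes in adipose tissue only Rars2, for arginine, was a DEG. That is 5.88% of them, under the 25.1% of all tested genes. Rars2 rose from 22.7, 21.4 and 24.6 CPM to 45.5, 32.6 and 41.1 CPM (0.79 ± 0.14, adjusted p = 0.00503), beside its cytosolic counterpart Rars. Below the fold change, Yars2 at 0.56 ± 0.18 and Mars2 at 0.44 ± 0.14 were higher on the adjusted p alone (0.0421 and 0.0411), and Iars2 and Vars2 were lower on it. Iars2, the most abundant mitochondrial synthetase per length in control adipose tissue, was at 141, 124 and 125 CPM in control against 106, 86.8 and 90.0 CPM in OA-AP (-0.46 ± 0.11, adjusted p = 0.0166). Vars2 was at -0.35 ± 0.10 (adjusted p = 0.0271). The other 12 ranged from -0.24 to 0.30. The mitochondrial median was 0.06, against -0.01 for all genes.

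Whether the change differed between the tissues was tested on the tissue by condition term of the joint fit, as the log2 fold change in the pancreas minus that in adipose tissue. Over all genes 10.5% had a higher and 10.8% a lower value at an adjusted p under 0.05. Of the 20 cytosolic synthetases 15 had a lower value, 1 a higher one and 4 (Dars, Gars, Qars and Wars) were not called, and the median was -1.12 against 0.06 for all genes. Yars differed most, by -2.42 ± 0.15 (adjusted p = 1.14e-05), followed by Cars at -2.25 ± 0.16 (adjusted p = 1.42e-05), Iars at -2.20 ± 0.18 (adjusted p = 2.83e-05), Nars at -1.88 ± 0.16 (adjusted p = 3.84e-05) and Tars at -1.68 ± 0.14 (adjusted p = 3.47e-05). Yars, Nars, Iars and Tars were downregulated in the pancreas and upregulated in adipose tissue. Vars was the 1 with the higher value, 1.11 ± 0.19 (adjusted p = 0.00182), since it rose in both tissues and by more in the pancreas. Of the mitochondrial enzymes Cars2 (-1.50 ± 0.34, adjusted p = 0.00835) and Rars2 (-1.29 ± 0.24, adjusted p = 0.00275) differed. With library totals alone, 7 members had a lower and 8 a higher value, as the median of all genes moved by 0.82.

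Among the 5 genes whose promoter windows are shown above, Yars, Iars and Tars changed in opposite directions in the tissues. Aars was downregulated in the pancreas and was at 0.50 ± 0.13 in adipose tissue, under the fold change. Gars was a DEG in neither tissue, at 0.17 ± 0.23 in the pancreas and 0.34 ± 0.09 in adipose tissue. Cars and Nars, which also fell in the pancreas, had no promoter entry in that source. Mars, Eprs, Cars2 and Fars2 fell there too and had an entry without a match. Farsa, Farsb, Kars and Rars2, which rose in adipose tissue, also had an entry without a match. Vars, Hars and Rars, which rose there as well, had no entry.

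All 3 scaffold proteins of the complex were compared next. In adipose tissue Aimp2 rose from 10.3, 9.66 and 8.68 CPM to 23.1, 18.3 and 22.7 CPM (1.16 ± 0.13, adjusted p = 0.00139) and Eef1e1 from 10.2, 10.6 and 9.67 CPM to 22.9, 16.4 and 23.8 CPM (1.05 ± 0.16, adjusted p = 0.00323). Aimp1 was at 0.41 ± 0.11 there. In the pancreas none of the 3 was a DEG, with -0.46 ± 0.15 for Aimp1, -0.28 ± 0.30 for Eef1e1 and 0.00 ± 0.38 for Aimp2. Of a list of other cytosolic genes that work around tRNA charging, 3 of 12 tested were downregulated in the pancreas, beside 13.5% of all tested genes. These were the tRNA exporter Xpot (-0.86 ± 0.14), the proofreading deacylase Dtd1 (-1.20 ± 0.31) and Tarsl2 (-1.59 ± 0.44), a threonyl-tRNA synthetase-like gene outside the symbol rule. In adipose tissue 2 of 13 were upregulated, near the 12.1% of all tested genes: Eef1g, a subunit of elongation factor 1 (0.81 ± 0.13), and Yrdc, which modifies tRNA (0.84 ± 0.14). Of 15 mitochondrial partners 3 were downregulated in the pancreas, the mitochondrial elongation factors Tufm (-0.59 ± 0.17), Tsfm (-0.89 ± 0.24) and Gfm1 (-0.64 ± 0.18), and none was a DEG in adipose tissue.

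Of ATF4 and its known targets, 13 of 33 were downregulated in the pancreas, where 13.5% of all tested genes were, and the list median was -0.62. The 5 of 33 that were upregulated are near the 16.2% of all tested genes. The largest log2 fold change in the list was 4.02. Its summed level went the other way from its median, from 3164 and 3362 CPM in control to 6364, 6918 and 9729 CPM in OA-AP. The proline synthesis enzymes Pycr1 (-3.60 ± 0.17) and Aldh18a1 (-2.22 ± 0.17) and the cystathionine lyase Cth (-4.00 ± 0.23) had the smallest p-values. Pycr1 was at 53.0 and 56.3 CPM in control and at 3.62, 5.09 and 4.81 CPM in OA-AP. Asns, the asparagine synthetase, was at -0.64 ± 0.16 (adjusted p = 0.0164), and Ddit3, the stress factor CHOP, at -1.96 ± 0.29 (adjusted p = 0.00206). Atf4 itself was at 93.4 and 98.9 CPM against 83.8, 74.6 and 102 CPM (-0.15 ± 0.16, adjusted p = 0.49). In adipose tissue 10 of 33 were upregulated, where 12.1% of all tested genes were, and the list median was 0.16. The 4 of 33 that were downregulated there are near the 13% of all tested genes. Atf4 rose there from 105, 111 and 99.5 CPM to 160, 163 and 152 CPM (0.59 ± 0.09, adjusted p = 0.00326). The amino acid transporter Slc7a5 (2.21 ± 0.19), the phosphatase subunit Ppp1r15a (0.87 ± 0.09) and Cebpb (1.51 ± 0.15) had the smallest p-values, whereas Asns (-0.02 ± 0.18) and Ddit3 (0.12 ± 0.13) were not DEGs. Cebpb, an ATF4 partner, rose in the pancreas too (2.19 ± 0.30).

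Of the 4 kinases that act on eIF2 alpha upstream of ATF4, the endoplasmic reticulum kinase Eif2ak3 was the only DEG. It was upregulated in the pancreas from 68.2 and 75.0 CPM to 134, 135 and 217 CPM (1.18 ± 0.23, adjusted p = 0.00726). That 1 of 4 is near the 29.8% of all tested genes that were DEGs in the pancreas. Eif2ak4, the kinase that senses uncharged tRNA, was at -0.45 ± 0.16 in the pancreas (adjusted p = 0.0612) and at 0.07 ± 0.10 in adipose tissue. Of the interferon response genes 11 of 20 tested were downregulated in the pancreas, beside 13.5% of all tested genes. Irf7 stood at 9.01 and 4.89 CPM in control and at 0.63 to 1.26 CPM in OA-AP, and Irf1 was at -0.92 ± 0.26. Wars did not follow them there, at -0.04 ± 0.13. In adipose tissue Cxcl10 was the 1 interferon gene of 24 tested that was a DEG (0.83 ± 0.22), where 12.1% of all tested genes were upregulated.

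Some members share exon sequence with another gene, and the strand setting of the authors' counting is not given in the sources used here, so reads of such a pair cannot be told apart. In GENCODE M21 14 of the 37 do so. Hars and Hars2 share 195 exon bases, head to head. Mars shares 68 bases with Ddit3, Yars 30 bases with C77080, and Cars 211 bases with a pseudogene on the other strand. Aars shares 14.3% of its exon bases with Exosc6 on its own strand, and Iars2 22.9% with Rab3gap2 on the other.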

How the data were processed

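RNA of 5 pancreas and 6 adipose samples was sequenced. The authors cleaned the reads with Trim Galore (0.6.6) and fastp (0.20.1), mapped them to GRCm38 with STAR and counted them with featureCounts (2.0.1). What they deposited are raw counts, 1 whole number for each gene in each sample. The annotation release and strand setting are not given in the sources used here. Samples were grouped by their labels. Each tissue was tested apart with edgeR (4.0.16) in R (4.3.3): filterByExpr, TMM factors, the robust quasi-likelihood test and Benjamini-Hochberg adjustment over all genes tested. DEGs were at least 1.5-fold apart with an adjusted p under 0.05. SEs were derived from F, as the absolute log2 value over its root. A joint fit of 11 libraries gave the tissue by condition term, called on the adjusted p alone, and the control tissue comparison. Levels per kb use the gene length deposited with the pancreas counts. The tests were also run on simulated data, with 100 genes changed by 1 log2 unit and 100 by 2. Of these the pancreas test found 43 and 95, with 20 false calls. The adipose test found 74 and 97, with 15 false calls. The tissue by condition term found 19 and 75, with 7 false calls, and the control tissue comparison 43 and 84, with 8. Changes of 1 log2 unit were thus often missed, most of all by the tissue by condition term, and some calls may be false.

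The members and gene lists were chosen with earlier results of these data known. All members are counted, and DEGs are given with a value per library; a few named items are not reported here. From each other list up to 3 genes with the smallest p in a tissue could be named, and Atf4, Ddit3, Asns, Eif2ak4, the scaffolds, Irf1 and Gbp2. Gbp4, and Cebpb in the pancreas, were named after their values were seen. Replicates differed beyond counting noise (lowest chi-square per degree of freedom 7.56). Alternatives were DESeq2 (1.42.0) and its size factors, library totals, TMM without acinar genes, other filters and fold changes, each library left out and a replicate block. Sequences are from RefSeq (GRCm38.p6).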

Additional observations from a re-analysis of the deposited data

Results flagged for a closer look

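The change with OA-AP differed between pancreas and adipose tissue for 18 synthetases by the test of the difference itself (tissue by condition term, adjusted p under 0.05). The difference, log2 fold change in the pancreas minus that in adipose tissue, was -2.42 for Yars, -2.25 for Cars, -2.20 for Iars, -1.88 for Nars and -1.68 for Tars. It was -1.57 for Farsb, -1.36 for Hars, -1.27 for Eprs, -1.19 for Aars and -1.17 for Kars. It was -1.07 for Rars, -1.01 for Lars, -0.89 for Mars, -0.87 for Farsa and -0.75 for Sars. Of the mitochondrial enzymes it was -1.50 for Cars2 and -1.29 for Rars2. For Vars it was 1.11, the only positive one of the 18. With 1 library left out, the value for Farsa ranged from -1.18 to -0.49. Farsa was not called when adipose control 1, 2 or 3 was left out, among other refits, nor with the replicate block.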

How the results depend on the processing

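The scaling mattered most. With library totals alone, calls in the pancreas were 6 higher and 2 lower for cytosolic and 0 lower for mitochondrial enzymes; in adipose tissue 1 mitochondrial enzyme, Iars2, was lower; the tissue by condition term gave 8 higher and 7 lower, and the control tissues 1 higher and 32 lower. Of all genes called, 92% were then higher in the pancreas (54.5% with TMM), 32.1% in adipose tissue (48.1%), 94.1% for the tissue by condition term and 7.42% for the control tissues. By construction this scaling moves all genes of a comparison together. It turned the sign of 39 values. In the pancreas these were Wars 0.67, Mars 0.09, Rars 0.64, Farsa 0.68, Asns 0.06, Gfm1 0.08 and Tufm 0.14, and for the tissue by condition term Sars 0.08, Gars 0.68 and Qars 0.66. Between control tissues they were Vars -0.40, Sars -0.86, Gars -1.83, Mars -0.32, Nars -1.44, Qars -1.49, Kars -1.14, Lars -1.08, Aars -2.32, Tars -1.21, Yars -1.01, Dars -2.40, Iars -1.09, Hars -1.82, Cars -0.35, Rars -2.33, Farsa -1.36, Hars2 -2.34, Tars2 -2.26, Cars2 -0.30, Vars2 -2.17, Yars2 -1.78, Fars2 -2, Rars2 -2.31, Mars2 -1.28, Ears2 -1.69, Aars2 -1.69, Nars2 -1.93 and Sars2 -2.44.

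At a fold change of 2 the pancreas had 4 cytosolic enzymes lower and 0 mitochondrial higher, adipose tissue 3 cytosolic and 0 mitochondrial higher, and the control tissues 0 lower. With no fold change threshold adipose tissue had 18 cytosolic and 3 mitochondrial higher and 2 mitochondrial lower, and the control tissues 4 lower. DESeq2 called 1 lower between control tissues; the cause was not tested. With 1 library left out, the pancreas had 5 to 11 cytosolic lower, 0 to 1 mitochondrial higher and 0 to 2 mitochondrial lower. Adipose tissue had 8 to 11 cytosolic and 1 to 2 mitochondrial higher. The tissue by condition term had 16 to 20 lower, and the control tissues 15 to 20 higher and 1 to 3 lower.

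Samples with the same replicate number did not deviate together (correlations of -0.16 to 0.13), so the numbers were not taken as pairs. With a replicate block the pancreas had 11 cytosolic lower, adipose tissue 11 higher, with Wars (0.60) as the added one, and the tissue by condition term 16 lower. Over all genes that term then gave 1093 higher and 1063 lower, against 1794 and 1842 without the block. The pancreas comparison rests on 2 control libraries, and mitochondrial enzymes have low counts there, so an enzyme that was not called may still differ.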

Other observations

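The balance of cytosolic and mitochondrial synthetases within a library does not depend on the library scaling. In adipose tissue the median log2 CPM of the cytosolic enzymes exceeded that of the mitochondrial ones by 1.79, 1.98 and 2.06 in the control libraries and by 2.52, 2.7 and 2.57 in OA-AP. In the pancreas it exceeded it by 2.35 and 2.18 in control and by 1.89, 1.75 and 2.40 in OA-AP, and the groups overlapped.

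Other promoter letters were searched in the same RefSeq windows. The cAMP response element TGACGTCA was in 1.79% of all promoters and in 0 of the 27 members with an entry. The E-box CACGTG was in 7.15% of all promoters and in 5 members, Aars, Ears2, Farsb, Iars and Tars.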
